A study of Bos taurus with 9 samples.

Results

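Transcripts of the enzymes that remove superoxide and hydrogen peroxide were followed in 9 RNA-seq libraries of cloned cattle embryos. The rule named 10 genes by symbol, and 8 of them had a row, out of 16129 genes found in all 9 files. These 8 were the superoxide dismutases SOD1 (ENSBTAG00000018854.4) and SOD2 (ENSBTAG00000006523.5), the catalase gene CAT (ENSBTAG00000020980.5) and the peroxiredoxins PRDX1 (ENSBTAG00000003642.3), PRDX2 (ENSBTAG00000012062.3), PRDX3 (ENSBTAG00000008731.2), PRDX5 (ENSBTAG00000008648.4) and PRDX6 (ENSBTAG00000004855.5). The glutathione peroxidases GPX1 and GPX4 were not analysed here. The row of SOD2 carries its symbol in the 8-cell files only and was followed into the morula files by its identifier.

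All embryos were clones made by somatic cell nuclear transfer (SCNT): a body cell is fused with an egg whose own chromosomes were taken out. Donor cells in all groups were fibroblasts of 1 female Holstein fetus. Of the 3 groups of 3 libraries, the first held control morulae, taken on day 5 in pools of 5 embryos and not injected. The second held KDM6A morulae, taken and pooled in the same way after wild-type bovine KDM6A mRNA was injected 1 h after activation. The third held 8-cell embryos, which are labelled as controls too, come from an earlier series and have no collection step of their own in the labels. Wherever the 8-cell group is compared, the stage and the series it came from cannot be told apart. The controls received no injection at all, so KDM6A and the act of injection cannot be told apart either. The labels do not tie the pools to different days or oocyte batches. The p-values therefore weigh differences only against the spread of these samples, some of which may be technical.

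Superoxide, which leaks from the respiratory chain, is turned into hydrogen peroxide by superoxide dismutases: SOD1 uses copper and zinc in the cytosol, and SOD2 uses manganese in the mitochondrial matrix. Hydrogen peroxide is then removed by catalase in peroxisomes and by peroxiredoxins, which take electrons from thioredoxin. PRDX1 and PRDX2 work mainly in the cytosol, PRDX3 in mitochondria, PRDX5 in mitochondria, peroxisomes and cytosol, and PRDX6 uses glutathione. Cultured embryos are known to be sensitive to oxygen and peroxide. KDM6A, the injected enzyme, removes methyl groups from lysine 27 of histone H3, a mark of silenced genes.

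Values are FPKM (read fragments scaled to transcript length and library total), so levels can be set beside each other between genes. The depth of the libraries is unknown, and their summed FPKM over annotated genes ran from 820346 to 989916. Correlations of log2(FPKM + 1) within groups were 0.973 to 0.993. KDM6A replicate 1 was closer to the 3 control libraries (0.989 to 0.990) than to KDM6A replicates 2 (0.986) and 3 (0.983). KDM6A stood at 10.72, 13.86 and 10.74 FPKM in control morulae and at 35.65, 87.58 and 79.44 in KDM6A morulae, and every injected pool was above every control. Of 10 genes listed as morula markers, 6 were higher in control morulae than in 8-cell embryos (CDH1, GATA3, KRT8, KRT18, POU5F1 and SOX2) and 3 lower (DPPA3, NANOG and TFAP2C). Of 9 tested oocyte transcripts, 9 were lower in control morulae than in 8-cell embryos. KRT8 and KRT18 were below 1 FPKM in all 8-cell libraries, and ZAR1, an oocyte transcript, in all control morulae. Each passed the filter through the other group only. These are pools of whole embryos, in which fewer cells of a type and less RNA per cell cannot be told apart.

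The summed level of the 8 enzymes was several times higher in morulae than at the 8-cell stage, and peroxiredoxins carried nearly all of that difference. The sum was 1029.69, 991.17 and 911.72 FPKM in the 8-cell libraries, 3733.85, 3264.67 and 3296.99 in control morulae and 3928.76, 3506.88 and 3869.35 in KDM6A morulae. The 5 peroxiredoxins summed to 611 ± 47.6 FPKM (SD, n = 3) in 8-cell embryos, 3063 ± 166 in controls and 3366 ± 250.0 in KDM6A morulae. The dismutases summed to 346 ± 29.9, 333 ± 94.0 and 365 ± 83.7 FPKM in the same order of groups, and their ranges overlapped.

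**Figure D1:**
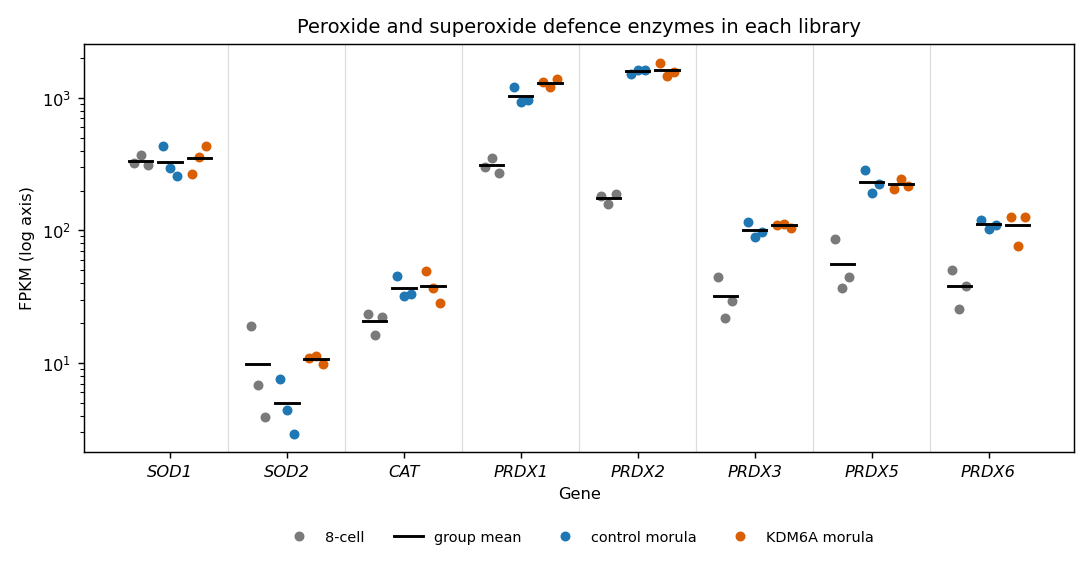
FPKM of the 8 enzymes on a log axis, with 1 point per library (3 per group) and a black line at each group mean. PRDX1, PRDX2, PRDX3, PRDX5, PRDX6 and CAT sit higher in all 6 morula libraries than in the 3 8-cell libraries, SOD1 overlaps in all 3 groups, and SOD2 lies between 9.82 and 11.31 in KDM6A morulae and between 2.93 and 7.54 in controls.

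Among control morulae and 8-cell embryos, 6 of the 8 enzymes passed the test as higher in morulae and 0 as lower (limma on log2(FPKM + 1), adjusted over 10048 genes). In that comparison 42.7% of all tested genes were called higher and 27.1% lower, 69.8% together. The same 6 enzymes were those whose groups did not overlap, as in 74.5% of all tested genes, 45.4% on the higher side. The median log2 fold change of the 8 was 1.62, against 0.35 over all tested genes. Since a rescaling of the libraries moves that overall median (to 0.07 after quantile normalization and 0.11 after median-of-ratios scaling), the values below, which are not corrected for it, should be read against it. All 8 enzymes passed the filter of 1 FPKM in 3 libraries.

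PRDX2, a cytosolic peroxiredoxin known as a major protein of red blood cells, changed most. It stood at 180.56, 158.7 and 188.88 FPKM in 8-cell embryos and at 1523.95, 1615.79 and 1610.71 in control morulae. No morula library came near the 8-cell range, and the means differed 8.99-fold. The log2 fold change was 3.17 (95% interval 2.81 to 3.53, limma adjusted p = 7.14e-07), above that of 96.8% of the tested genes. In the order of expressed genes PRDX2 moved from place 727 to 756 in the 8-cell libraries to place 105 to 123 in control morulae.

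PRDX1, its close relative in the cytosol, was at 302.62, 354.67 and 271.39 FPKM in 8-cell embryos and at 1204.93, 936.27 and 961.34 in control morulae. The ranges lay far apart. The means differed 3.34-fold, and the change of 1.74 on the log2 scale (SE 0.184) had a limma adjusted p of 2.94e-05. The balance of the pair turned over between the stages. PRDX2 stood at 0.597, 0.447 and 0.696 of the PRDX1 level in the 3 8-cell libraries, and at 1.26, 1.73 and 1.68 times it in control morulae. Such a ratio is taken within a library and does not depend on a scaling factor shared by all genes of that library. Quantile normalization, which is not such a factor, can change it.

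PRDX3, the mitochondrial peroxiredoxin, was at 44.59, 21.9 and 29.33 FPKM in 8-cell embryos and at 115.93, 88.72 and 97.02 in control morulae. All 3 control libraries were at least at 88.72, and no 8-cell library passed 44.59. On the log2 scale it rose by 1.67 ± 0.260 (SE), with a limma adjusted p of 0.000294. PRDX5, which also acts on organic peroxides, rose from 85.91, 37.09 and 44.28 FPKM to 286.29, 190.02 and 224.29, by 2.12 ± 0.302 (SE) on the log2 scale (limma adjusted p = 0.000171). Its 8-cell replicate 1 stood well above the other 8-cell libraries and below every morula library. PRDX6, an enzyme that also acts on lipid peroxides and phospholipids, rose from 50.49, 25.71 and 37.98 FPKM to 119.01, 102.96 and 110.56, by 1.57 ± 0.245 (SE) on the log2 scale (limma adjusted p = 0.000309). PRDX3 and PRDX6 were neighbours in level in every group, and their ranges overlapped in each.

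CAT, which encodes catalase, rose least among the enzymes that passed. It was at 23.52, 16.12 and 22.29 FPKM in 8-cell embryos and at 45.03, 31.8 and 33.28 in control morulae, and the groups did not overlap. The log2 fold change was 0.80 (95% interval 0.29 to 1.32, limma adjusted p = 0.0107), above that of 62.1% of tested genes. Its share of the summed enzyme level was 2.12% ± 0.434 (SD, n = 3) in 8-cell embryos and 1.06% ± 0.125 in controls, without overlap.

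SOD1 showed no call. Its libraries stood at 323.1, 370.12 and 313.66 FPKM at the 8-cell stage and at 431.17, 294.69 and 256.86 in control morulae, and the control range enclosed the 8-cell range. The log2 fold change was -0.07, and its 95% interval of -0.55 to 0.41 leaves out a change of the size seen for any peroxiredoxin. Its sign turned when control replicate 3 (0.09) or 8-cell replicate 2 (0.01) was left out, and the 3 rescalings took it to between -0.25 and -0.35, still without a call. SOD2, the mitochondrial dismutase, had a wide spread at the 8-cell stage, with 18.9, 6.86 and 3.91 FPKM against 7.54, 4.42 and 2.93 in control morulae. The ranges overlapped and the log2 fold change of -0.69 was not called (95% interval -1.77 to 0.39, limma adjusted p = 0.223). Without 8-cell replicate 1 the value was -0.13.

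The order of the enzymes by level changed with these shifts. In each 8-cell library SOD1 was the most abundant of the 8, ahead of PRDX1 and PRDX2, although the ranges of SOD1 and PRDX1 overlapped over the 3 libraries. In each of the 6 morula libraries the order began with PRDX2, then PRDX1, then SOD1, and the ranges of PRDX2, PRDX1 and SOD1 did not overlap within either morula group. PRDX5 came next in every group, its range overlapping that of SOD1 in control morulae and that of PRDX6 in 8-cell embryos. CAT and SOD2 were the lowest in each library, and at the 8-cell stage their ranges overlapped (SOD2 up to 18.9 FPKM, CAT from 16.12).

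As a share of the summed level of the 8 enzymes, SOD1 made up 34.4% ± 2.98 at the 8-cell stage, 9.45% ± 1.91 in control and 9.43% ± 2.32 in KDM6A morulae (SD, n = 3 each). PRDX2 made up 18.1% ± 2.40, 46.4% ± 4.84 and 43.0% ± 3.49 in the same order, and PRDX1 31.6% ± 3.59, 30.0% ± 1.95 and 34.5% ± 1.16. The shares of SOD1 and of PRDX2 did not overlap between the 8-cell libraries and either morula group. For a single ratio or share, 3 libraries against 3 cannot give an exact two-sided permutation p below 0.1, so these are given as values.

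**Figure D2:**
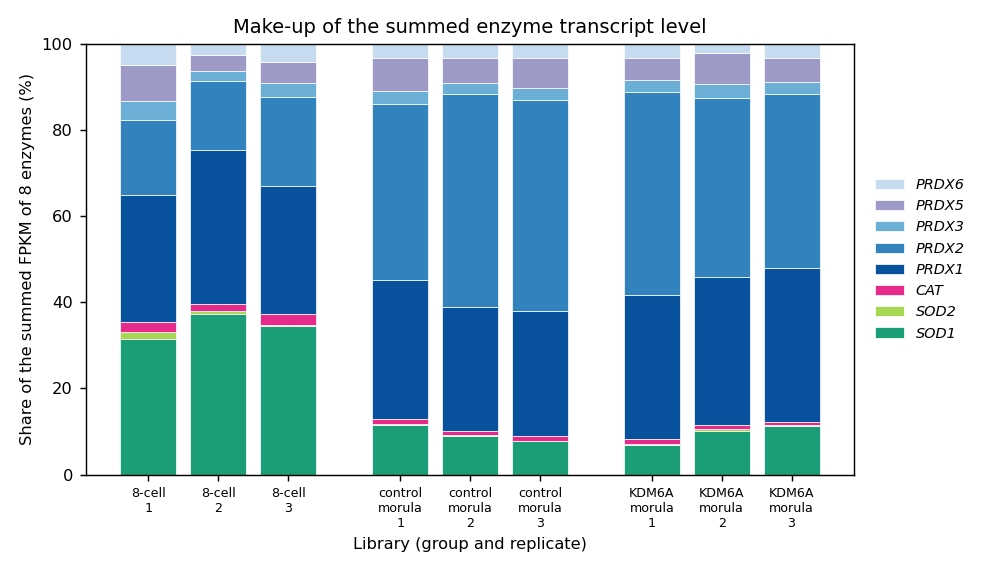
Make-up of the summed FPKM of the 8 enzymes in each of the 9 libraries, as stacked percentages that start at 0, by group and replicate. SOD1 fills 31.4% to 37.3% of the 8-cell bars and 6.84% to 11.5% of the morula bars, while PRDX2 fills 16.01% to 20.7% of the 8-cell bars and 40.5% to 49.5% of the morula bars.

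The comparison of KDM6A morulae with 8-cell embryos uses the same 8-cell libraries, so its values stand beside the former ones and are no second observation of them. The same 6 enzymes were called higher and 0 lower, where 41.1% of 10024 tested genes were called higher and 25.6% lower (66.7% together). The groups of these 6 did not overlap either, as in 71.3% of all tested genes, 43.2% on the higher side. PRDX2 had a log2 fold change of 3.20, PRDX1 of 2.07, PRDX5 of 2.07, PRDX3 of 1.80 and PRDX6 of 1.52, with limma adjusted p-values from 4.09e-07 to 0.000835. CAT stood at 49.04, 36.65 and 28.13 FPKM in KDM6A morulae, all above the 8-cell libraries, with a log2 fold change of 0.83 (limma adjusted p = 0.0169). That CAT call was lost without KDM6A replicate 1 (adjusted p = 0.0673), KDM6A replicate 2 (0.0514) or 8-cell replicate 2 (0.0508), and after median-of-ratios scaling (0.0575). SOD1 differed by 0.05 (95% interval -0.40 to 0.51), with a sign that turned after each of the 3 rescalings. SOD2 differed by 0.35 (95% interval -0.60 to 1.30, limma adjusted p = 0.492). Without 8-cell replicate 1, the library with 18.9 FPKM, the SOD2 difference was 0.91 and passed the test (limma adjusted p = 0.0229), and without 8-cell replicate 3 it was -0.10.

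**Figure D3:**
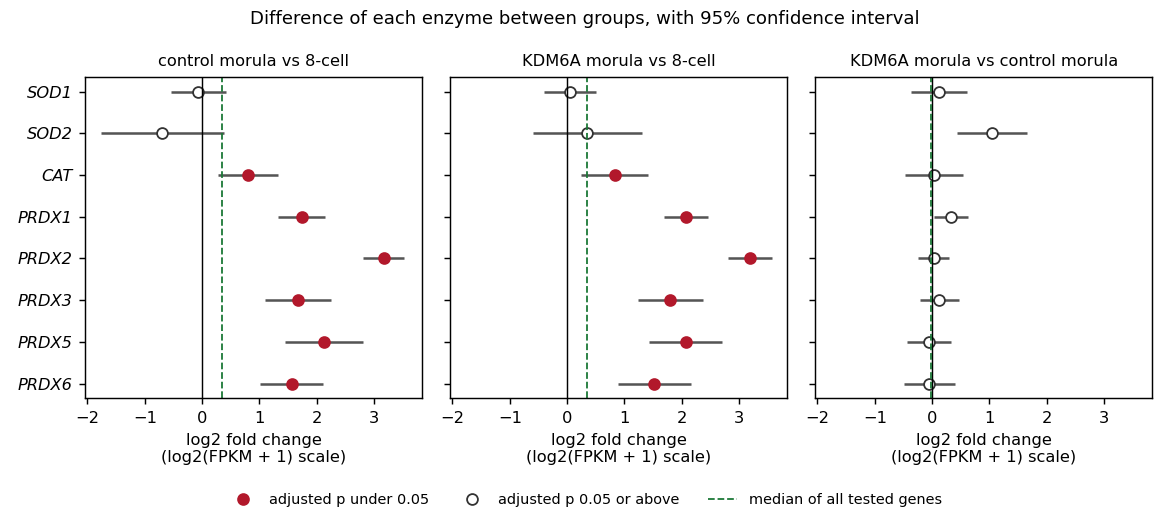
Log2 fold change of the 8 enzymes in the 3 comparisons (points) with 95% confidence intervals (lines), on the log2(FPKM + 1) scale. Filled points passed an adjusted p of 0.05, and the dashed line marks the median of all tested genes. In both comparisons with 8-cell embryos CAT and the 5 peroxiredoxins are filled, and no enzyme is filled between KDM6A and control morulae, where SOD2 lies at 1.04.

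Between KDM6A and control morulae, the question was whether supplying the demethylase went with a change in these enzymes. None of the 8 passed the test (limma, adjusted over 9777 genes), in a comparison in which 0.164% of all tested genes were called (0.123% higher, 0.0409% lower). Without KDM6A replicate 1 the calls over all genes went from 16 to 725 of 9596, and with any 1 of the other libraries left out they were 1 to 17 (17 without control replicate 1, 8 and 3 without control replicates 2 and 3, 3 and 1 without KDM6A replicates 2 and 3). None of the 8 enzymes was called in any of these. At an unadjusted p under 0.05 there were 2 of the 8, SOD2 and PRDX1, against 12.7% of all tested genes. These 2 were also the enzymes whose groups did not overlap, both with KDM6A morulae on the higher side, as in 7.1% of all tested genes (15.7% in either direction). The median log2 fold change of the 8 was 0.07, against -0.01 over all tested genes.

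SOD2 had the largest difference of the 8. It stood at 10.93, 11.31 and 9.82 FPKM in KDM6A morulae and at 7.54, 4.42 and 2.93 in controls, a 2.15-fold difference of means. The KDM6A pools lay close together and above all controls, of which replicate 1 was the nearest. The log2 fold change was 1.04 (95% interval 0.43 to 1.65), above that of 99.2% of tested genes, with an unadjusted p of 0.00314 and a limma adjusted p of 0.224. Over 15 alternatives the log2 fold change ran from 0.78 to 1.34 and the limma adjusted p from 0.0695 to 0.749. SOD2 was as high in the first KDM6A pool, where KDM6A was at 35.65 FPKM, as in the others, where KDM6A was at 87.58 and 79.44. Whether SOD2 followed the KDM6A level was not tested. Measured against the cytosolic enzyme of the same library, SOD1 was 24.6, 31.5 and 44.5 times SOD2 in KDM6A morulae and 57.2, 66.7 and 87.7 times SOD2 in controls, and these ratios did not overlap. In 8-cell embryos they were 17.1, 54.0 and 80.2. Some stage markers differed between the morula groups too, with no call. Of 4 genome activation genes, whose median log2 fold change was 0.85, 3 had an unadjusted p under 0.05 (limma). A log2 fold change above 0 was seen for 3 of the 4. Their summed level was not higher, at 1585 to 1709 FPKM in KDM6A morulae and 1606 to 2036 in controls. UBTFL1 was at 9.85, 21.58 and 22.17 FPKM in KDM6A morulae and 6.95, 8.05 and 7.48 in controls. KLF17 was at 64.95, 109.64 and 100.65 against 77.28, 30.65 and 32.39, and its ranges overlapped. GATA3, a factor of the outer cells and 1 of the 10 listed morula markers, was at 3.29, 2.33 and 2.56 FPKM against 7.04, 7.56 and 8.35. The list as a whole did not share this difference. Of its 10 genes 5 had a log2 fold change above 0, with a median of -0.12, and 0 were called. The part of stage in the SOD2 values was not tested.

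PRDX1 was at 1311.83, 1205.92 and 1381.69 FPKM in KDM6A morulae and at 1204.93, 936.27 and 961.34 in controls. The groups did not overlap but nearly met at control replicate 1 and KDM6A replicate 2. The means differed 1.26-fold, with a log2 fold change of 0.34 (95% interval 0.04 to 0.63, limma adjusted p = 0.339). The share of PRDX1 in the summed enzyme level was 33.4%, 34.4% and 35.7% in KDM6A morulae and 32.3%, 28.7% and 29.2% in controls. As with SOD2, control replicate 1 lay nearest to the KDM6A pools.

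For the remaining 6 the KDM6A and control ranges overlapped. PRDX2 was at 1847.19, 1460.88 and 1565.6 FPKM in KDM6A morulae, a range that enclosed the controls, with a log2 fold change of 0.03 (95% interval -0.24 to 0.30). PRDX3 was at 110.51, 112.64 and 104.98 FPKM, inside the control range, with a log2 fold change of 0.13 (95% interval -0.22 to 0.48). SOD1 was at 268.57, 356.21 and 437.05 FPKM, as widely spread as its controls (0.12, interval -0.37 to 0.61). CAT had a difference of 0.03 (interval -0.48 to 0.54) and PRDX5, at 204.11, 246.37 and 216.59 FPKM, one of -0.05 (interval -0.44 to 0.33). PRDX6 was at 126.58, 76.9 and 125.49 FPKM, with KDM6A replicate 2 below every other morula library, and differed by -0.05 (interval -0.50 to 0.40). The intervals leave out a doubling for each of these 6, and smaller changes were not resolved by 3 pools per group. The signs for SOD1, CAT, PRDX2, PRDX5 and PRDX6 each turned when some 1 library was left out.

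Single libraries shaped the spread within groups. Control replicate 1 was the highest of the controls for 7 of the 8 enzymes, all but PRDX2. The same library had the most oocyte transcript among the controls, with a summed level of 10 oocyte genes of 469.53 FPKM against 21.27 and 115.62, and the part of this in the enzyme values was not tested. Among 8-cell libraries replicate 1 was the highest for SOD2, CAT, PRDX3, PRDX5 and PRDX6. The summed oocyte transcripts there were 3751.28, 9064.48 and 6148.46 FPKM, and CAT, PRDX3, PRDX5 and PRDX6 were each highest in the library with the least of them and lowest in the library with the most. SOD1 and PRDX1 were instead highest in replicate 2, which had the most. What part maternal RNA has in these levels was not tested.

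Red blood cells are rich in catalase and PRDX2, and fibroblasts were the donor cells, so their markers were read beside the enzymes. The summed level of 9 blood genes was 156 to 328 FPKM in 8-cell embryos, 564 to 888 in control morulae and 416 to 1117 in KDM6A morulae, nearly all of it from HBA and HBG, which passed as higher in both morula groups than in 8-cell embryos (limma). In KDM6A morulae ALAS2, of haem synthesis, and CSF1R, a macrophage receptor, also passed as higher, at 1.92 to 3.47 FPKM against 0 and at 7.97 to 10.76 against 4.11 to 5.51. ALAS2 passed the filter through the morulae only. HBB and the white cell factor SPI1 were below 1 FPKM in all 9 libraries. The summed level of 15 fibroblast genes was 33.2 to 83.8 FPKM at the 8-cell stage, 134 to 191 in control and 113 to 154 in KDM6A morulae, where most of it came from FN1, PDGFRA, DCN and S100A4. FN1, S100A4 and THY1 (up to 7.88 FPKM) were called higher in both morula groups than in 8-cell embryos, PDGFRA in KDM6A morulae, and COL5A1 and LUM lower in both. COL1A2, COL3A1, COL5A1, COL6A1 and COL6A2, collagens that define fibroblasts, were below 1 FPKM in all 6 morula libraries, and COL1A1 reached 1.17. Cumulus cell genes summed to 20.1 to 36.9, 12.3 to 14.6 and 7.56 to 12.6 FPKM in the same order of groups. STAR (3.52 to 10.82 FPKM), TNFAIP6 (1.83 to 9.56) and HAS2 (0.04 to 19.82) were detected, and HAS2 and TNFAIP6 were called lower in both morula groups than in 8-cell embryos. CYP19A1, CYP11A1, INHBA, INHA, AMH and PTX3 were below 1 FPKM in every library. What part such cells have in the enzyme levels was not tested.

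Over the 9 libraries the 5 peroxiredoxins followed each other closely, with Pearson correlations of log2(FPKM + 1) between 0.898 and 0.993 over their 10 pairs. CAT correlated with them at 0.810 to 0.897, and SOD1 and SOD2 at -0.117 to 0.115. The 9 points fall into stages and share that difference. Over the 6 morula libraries alone the peroxiredoxin pairs ran from -0.600 to 0.775. There CAT correlated with the peroxiredoxins at 0.158 to 0.617. SOD1 and SOD2 did so at -0.625 (SOD1 with PRDX2) to 0.898 (SOD2 with PRDX1). Among 6413 genes with a mean of at least 5 FPKM, the one most like PRDX2 was NDUFV3 (r = 0.998), and for PRDX3 it was UROD (0.999), for PRDX5 TIMM17B (0.995), for PRDX1 SSR3 (0.994), for CAT SLC25A4 (0.988) and for PRDX6 MEMO1 (0.987). Such likeness was common, since 1222 genes had a correlation above 0.95 with PRDX2 and 27 with CAT. SOD2 and SOD1 had no gene above 0.95, and the nearest to them were TNFRSF12A (0.904) and YWHAZ (0.867).

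TNFRSF12A, a receptor of the tumour necrosis factor family, stood at 7.91, 15.75 and 11.06 FPKM in KDM6A morulae, at 6.51, 2.76 and 2.89 in controls and at 15.15, 3.55 and 1.44 in 8-cell embryos. It was picked for its likeness to SOD2 over these libraries, so the shared pattern is no separate result.

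Peroxiredoxins are recharged by thioredoxins, which thioredoxin reductases recharge with NADPH. Of 14 tested thioredoxin and glutaredoxin genes, 8 were higher and 1 lower in control morulae than in 8-cell embryos (limma), with a median log2 fold change of 1.02. Over all tested genes these shares were 42.7% and 27.1%, with a median of 0.35, and the counts of the lists that follow stand beside the same values. The cytosolic thioredoxin TXN rose from 171.27, 105.78 and 145.1 FPKM to 545.43, 584.25 and 705.49, a log2 fold change of 2.13. The mitochondrial TXN2 rose from 62.1 ± 26.0 to 308 ± 77.9 FPKM (SD, n = 3), a log2 fold change of 2.34. TXNRD1, the cytosolic reductase, was at 46.3 ± 13.2 and 67.2 ± 1.67 FPKM, a difference of 0.57 that missed the threshold (limma adjusted p = 0.051) and passed in 3 of 15 alternatives, without 8-cell replicate 3 (0.0251), with all 9 libraries in 1 fit (0.0361) and with a replicate block (0.0455). The mitochondrial reductase TXNRD2 and SRXN1, which repairs over-oxidized peroxiredoxins, were below 1 FPKM in all 9 libraries and were not tested. TXNIP, which binds and inhibits thioredoxin, rose from 1.44 ± 0.648 to 12.6 ± 1.59 FPKM.

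Genes for glutathione, the electron donor of glutathione peroxidases and PRDX6, were called in both directions. Of 10 tested, 4 were higher and 2 lower in control morulae than in 8-cell embryos. GCLC, the catalytic subunit of the first enzyme of glutathione synthesis, fell from 49.1, 33.04 and 16.06 FPKM to 6.51, 7.73 and 7.91, a log2 fold change of -1.88 (limma adjusted p = 0.000956). Its regulatory partner GCLM rose from 0.61, 1.44 and 0.62 FPKM to 3.01, 5.52 and 3.86 (1.44, limma adjusted p = 0.000981). GSS, the second enzyme, rose from 0.640 ± 0.575 to 2.44 ± 0.650 FPKM. GSR, which recycles oxidized glutathione, was at 11.9 ± 0.933 and 10.2 ± 1.13 FPKM with no call. In KDM6A morulae GSR was at 8.36, 8.01 and 5.84 FPKM and passed as lower than in 8-cell embryos (limma adjusted p = 0.0456). That call was lost with a replicate block (adjusted p = 0.0645). It was also lost with any 1 of 5 of the 6 libraries left out, all but KDM6A replicate 1.

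NADPH is the common source of electrons. In the list of its supply, 8 of 10 tested genes were higher in control morulae and ME2 was lower. Of the 8, IDH1, IDH2 and PGD make NADPH, NADK and NADK2 make its precursor, and PGLS, TALDO1 and TKT act on sugar phosphates without making it. IDH1, the cytosolic isocitrate dehydrogenase, rose from 8.32, 4.75 and 6.08 FPKM to 60.2, 62.42 and 61.93, and IDH2, the mitochondrial one, from 3.16 ± 1.33 to 13.9 ± 3.95. NNT, a mitochondrial NADPH source, was below 1 FPKM in every library.

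Within the enzymes' own families, 4 of 7 tested relatives were higher and 0 lower in control morulae. PRDX4, the peroxiredoxin of the secretory pathway, rose from 187.29, 105.86 and 103.18 FPKM to 313.09, 357.32 and 299.63 (log2 fold change 1.34). GPX8, a peroxidase of the endoplasmic reticulum, rose from 2.91 ± 0.807 to 17.7 ± 3.55 FPKM, and GPX7, of the same compartment, was listed at 0 in the 3 8-cell libraries and at 3.11, 1.39 and 2.7 FPKM in controls. GPX7 passed the filter through the morulae only, so it could only be called higher. GPX3, the secreted peroxidase, was below 1 FPKM throughout, and SOD3 was not analysed here. CCS, the chaperone that loads copper into SOD1, was at 9.71 ± 0.723, 9.61 ± 1.82 and 10.1 ± 1.49 FPKM in 8-cell embryos, control and KDM6A morulae. Its difference between control morulae and 8-cell embryos was -0.03 with no call. It turned sign without control replicate 2 or 8-cell replicate 1 and was -0.19 to -0.34 after the rescalings.

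NFE2L2 (NRF2), the transcription factor best known for switching on antioxidant genes, rose from 19.88, 10.81 and 13.93 FPKM to 33.74, 42.62 and 35.23 in control morulae, a log2 fold change of 1.30 (limma adjusted p = 0.00105). KEAP1, which marks it for destruction, rose from 4.09 ± 0.748 to 6.80 ± 0.454 FPKM (0.62, limma adjusted p = 0.0352). That call was lost after quantile normalization (adjusted p = 0.337), after the other rescalings and with a replicate block (0.0660). It was also lost with any 1 control library or 8-cell replicate 3 left out. Of the classical targets of NFE2L2, NQO1 was at 2.48 ± 0.588 and 2.64 ± 0.403 FPKM, a difference whose sign turned after each rescaling. HMOX1 was below 1 FPKM in all libraries. In the wider list of NRF2 partners and targets, 10 of 15 tested were higher and 1 lower. GSTP1, a glutathione S-transferase, rose from 3.62 ± 1.15 to 78.2 ± 5.62 FPKM, while of its list of 10 tested transferases 3 were higher and 4 lower.

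FOXO3 and SIRT3, known as regulators of SOD2 and CAT at the level of transcription and of enzyme activity, were lower in control morulae than in 8-cell embryos. FOXO3 fell from 9.92, 5.38 and 9.46 FPKM to 1.9, 0.98 and 0.99 (log2 fold change -2.00), and SIRT3 from 13.29, 7.95 and 6.44 to 4.63, 3.29 and 1.89 (-1.26, limma adjusted p = 0.00687). Of the 8 tested genes of that list, 1 was higher and 6 lower. SEPHS2, needed to make selenoproteins, rose from 23.4 ± 9.94 to 71.7 ± 11.5 FPKM. In that list of 11 tested genes, which mixes selenoprotein synthesis with selenoproteins, 6 were higher and 4 lower. Of the synthesis genes PSTK, SARS, SEPHS2 and TRNAU1AP were higher and SECISBP2 and SEPSECS lower, and of the selenoproteins SELENOT and SELENOW were higher and SELENOK and SELENOS lower. Of 13 peroxisome assembly genes, on which catalase import depends, 6 were higher and 1 lower, a share of higher calls near that of all genes (42.7%), and PEX5, the import receptor, was at 0.453 ± 0.212 and 1.02 ± 0.456 FPKM and was not tested.

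**Figure D4:**
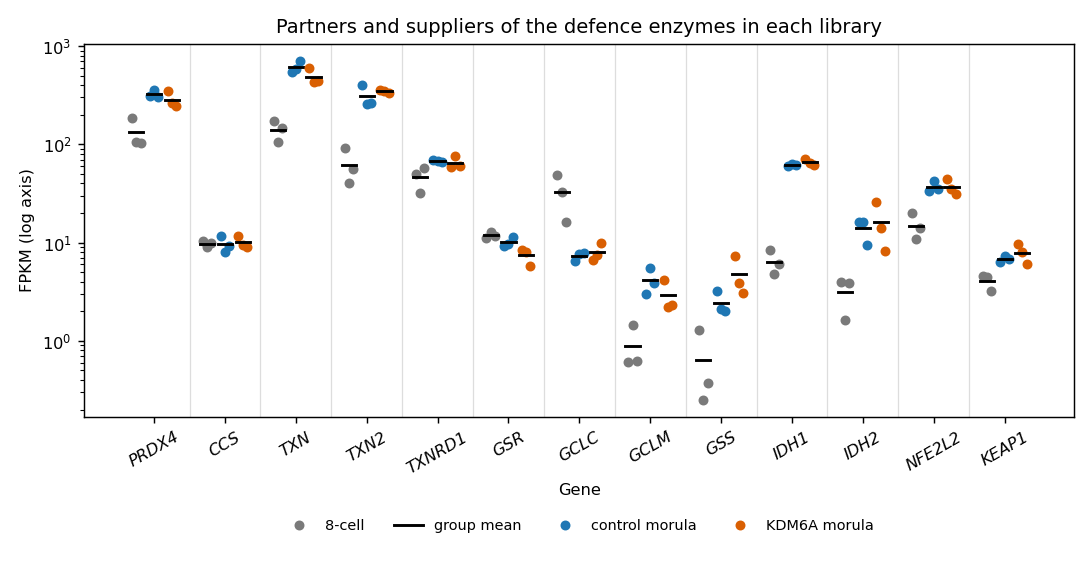
FPKM on a log axis of 13 genes that relate to the enzymes (a peroxiredoxin of the secretory pathway, the SOD1 chaperone, thioredoxins and a reductase, glutathione and NADPH genes, NFE2L2 and KEAP1), with 1 point per library and a line at each group mean. TXN, TXN2 and IDH1 lie higher in all morula libraries, GCLC lies lower, with 16.06 to 49.1 in 8-cell embryos and 6.51 to 9.90 in morulae, and CCS overlaps in all groups.

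Over the 10 lists together, 57 of 106 tested genes were higher and 20 lower in control morulae than in 8-cell embryos, or 53.8% and 18.9% against 42.7% and 27.1% of all tested genes. In KDM6A morulae, against the same 8-cell libraries, they were 54 and 19 of 106, or 50.9% and 17.9% against 41.1% and 25.6%. These counts, like those over all genes, include genes whose direction the filter set. GPX7, NADK2, DUOX2 and XDH were below 1 FPKM in all 8-cell libraries and could only be called higher in morulae. FOXO1 and PPARGC1A were below 1 FPKM in all morula libraries and could only be called lower. Between KDM6A and control morulae 0 of 106 were called (limma), with 14 at an unadjusted p under 0.05, or 13.2% against 12.7% of all tested genes. TXN was at 595.01, 426.98 and 440.36 FPKM in KDM6A morulae and differed from controls by -0.34 (limma adjusted p = 0.421). TXN2 was at 354.44, 350.13 and 332.99 FPKM (0.20, limma adjusted p = 0.66). GSR was lower in all KDM6A pools than in all controls, by -0.42 (limma adjusted p = 0.427). Groups did not overlap in 15.7% of all tested genes, in either direction. GSS, of the same glutathione list, differed the other way, by 0.69 (limma adjusted p = 0.349). It was at 7.28, 3.89 and 3.1 FPKM in KDM6A morulae and at 3.19, 2.1 and 2.03 in controls, and the ranges overlapped. Of the 10 tested genes of that list, 4 had a log2 fold change above 0.

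DUOXA2, a maturation factor for the peroxide-making dual oxidase, belongs to the list of oxidant sources. It stood at 57.27, 98.32 and 84.39 FPKM in KDM6A morulae, at 38.53, 25.84 and 23.85 in controls and at 0.73, 0.17 and 1.9 in 8-cell embryos. The KDM6A and control groups did not overlap, and the log2 fold change of 1.41 had a limma adjusted p of 0.0601. It passed without control replicate 1 (adjusted p = 0.0482) or KDM6A replicate 1 (0.00694), and after rescaling to TPM (0.0366) or quantile normalization (0.0492). In the other 11 of 15 alternatives it did not pass, with adjusted p-values up to 0.340. DUOX2, a dual oxidase, was at 16.67, 17.47 and 11.85 FPKM in KDM6A morulae. In controls it was at 10.06, 14.26 and 10.61, and the groups overlapped. Of 9 tested oxidant-making genes in the KDM6A and control comparison, 0 were called. Of these genes 3 had a log2 fold change above 0, and the median was -0.06. Between control morulae and 8-cell embryos 7 of 8 were higher and 0 lower. Of these 7, DUOX2, XDH and ACOX3 were below 1 FPKM in all 8-cell libraries. They passed the filter through the morulae only and could only be called higher. Of the list's genes with a row, 15 of 22 were below 1 FPKM in all 8-cell libraries and 14 of 23 in all control morulae.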

How the data were processed

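Per the file headers, the deposited files give FPKM per gene, rounded by the authors to 2 decimals. The submitters' processing notes list RSEM 1.2.12 and Bowtie2 2.2.5, with HISAT 0.1.6, bcl2fastq 2.16 and StringTie 1.0.4, and the build UMD3.1. The use made of each, and the counting of multi-mapping reads, were not given in the sources used here. Genes with near-identical copies are uncertain for that reason. Files were joined by gene identifier, and 3038 rows of control replicate 1 without one were left out. Low values showed no steps of whole reads (at most 8.96% of ratios in a bin), so depth is unknown and no counting interval is given.

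A comparison used only the 6 libraries of its groups, in limma 3.58.1 (R 4.3.3), with values as log2(FPKM + 1) and a trended prior, for genes with at least 1 FPKM in 3 of the 6 libraries compared, with Benjamini-Hochberg adjustment and a threshold of 0.05. A fold change on that scale understates low genes, and "-fold" means a ratio of mean FPKM. A gene below 1 FPKM in every library of a group passes this filter through the other group only. It can then only be called higher in that other group. The shares over all tested genes include such genes. Tests were two-sided. They were run on simulated data with 200 changed genes per comparison. For KDM6A against control morulae they recovered 47% of the changes by 1 log2 unit. Against 8-cell embryos they recovered 35% for control morulae and 30% for KDM6A morulae. Of the changes by 2 log2 units they recovered 92%, 80% and 81%, with 3, 11 and 3 false calls in that order. Tables and figures were made with Python 3.11.15, pandas 2.3.3, numpy 2.4.6 and matplotlib 3.10.9. Enzymes, lists and tests were chosen with earlier results of these data known. Named beside the 8 enzymes are a fixed set of related genes and, per enzyme, the gene of highest correlation. The 15 alternatives per comparison left out each replicate in turn, set the pseudocount to 0.1 or 0.5, dropped the filter or raised it to 5 FPKM, rescaled to TPM, by quantiles or by median of ratios, fitted 9 libraries at once, or blocked on replicate. For related genes and lists these were added after seeing the data.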

Additional observations from a re-analysis of the deposited data

How the results depend on the processing

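The count of the 8 enzymes called was 0 between KDM6A and control morulae and 6 between control morulae and 8-cell embryos under all 15 alternatives, and 5 to 7 between KDM6A morulae and 8-cell embryos. Of the 120 recomputed enzyme values per comparison, 107, 118 and 110 kept direction and call in that order. Over all genes, the 16 called between KDM6A and control morulae (limma) became 25 after rescaling to TPM, 28 after quantile normalization, 10 with all 9 libraries in 1 fit, 0 without the filter (1244 genes had an unadjusted p under 0.05 in the 9777 tested with it) and 1 to 725 with 1 replicate left out, the 725 without KDM6A replicate 1. The cause was not tested. With the replicate number as a block 1 gene was called, and the enzyme counts stayed at 0, 6 and 6. Deviations from the group mean correlated at -0.210, -0.216 and 0.133 between same-numbered control and KDM6A libraries. Between unlike-numbered ones they correlated at -0.183 to 0.285. Deviations from a mean of 3 libraries are tied to each other, so these values cannot settle whether equal numbers mark a shared day or batch.

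Between KDM6A and control morulae, PRDX5 turned to 0.00869 (TPM) and 0.0271 (quantile) and PRDX6 to 0.0138 (TPM) on the log2 scale. With 1 replicate left out, SOD1 ran from -0.0470 to 0.334, CAT from -0.170 to 0.22, PRDX2 from -0.0658 to 0.103, PRDX5 from -0.192 to 0.102 and PRDX6 from -0.170 to 0.186. Between control morulae and 8-cell embryos, leave-out values ran from -0.282 to 0.0905 for SOD1, -0.156 to 0.0858 for CCS and -0.0740 to 0.167 for NQO1. NQO1 turned to -0.0624 (TPM), -0.279 (quantile) and -0.125 (median of ratios). Between KDM6A morulae and 8-cell embryos, SOD1 turned to -0.0647, -0.107 and -0.211 and CCS to -0.0681, -0.258 and -0.200 under the same rescalings. Leave-out values there ran from -0.114 to 0.237 for SOD1, -0.100 to 0.910 for SOD2 and -0.0679 to 0.110 for CCS. The share of calls on the higher side fell under rescaling, from 61.2% to 52.0% for control morulae and from 61.6% to 52.2% for KDM6A morulae against 8-cell embryos after quantile normalization. The KDM6A transcript's own call was lost under 5 alternatives. With 3 pools a group and unknown depth, differences within the printed intervals were not resolved.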
